A study of Mus musculus with 12 samples.

Results

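The 10 genes described here mark the granule cell of the dentate gyrus, and they were followed through the hippocampus of stressed mice given Poria cocos acid A, of stressed mice given saline and of unstressed mice. They were taken from the deposited table by gene symbol (Prox1, Trpc6, Sema5a, C1ql2, C1ql3, Calb1, Dsp, Tdo2, Lct and Plk5), 10 of its 78298 genes. All 10 passed the filter on low counts that left 18600 genes for testing. In brief, 5 of the 10 (Prox1, Trpc6, Sema5a, C1ql3 and Calb1) fell in Treatment against Model, by between 18.5% and 33.0%, and the other 5 had negative fold changes that did not pass the test. Against Control, Trpc6 rose in Model by 41.6%, and none of the 10 passed the test in Treatment. These calls depended on single libraries and on the processing. In Treatment against Model, 0 members passed without Model replicate 2 or 3, or with the level of neocortical markers as a covariate. With FPKM values, Trpc6 alone passed. The rise of Trpc6 in Model lost its call in 6 of the 12 fits with 1 library left out.

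Granule cells are the principal neurons of the dentate gyrus, the part of the hippocampus where input from the entorhinal cortex arrives first. Their axons, the mossy fibres, end on hilar mossy cells and on the pyramidal cells of CA3, and new granule cells are added in adult life from progenitors that lie along the layer. The gene Prox1 encodes a homeobox transcription factor that granule cells need to take on and keep their identity. The other 9 genes encode a channel, synaptic and adhesion proteins, a calcium buffer and enzymes, and are used as granule cell markers in mice. How far each is confined to granule cells among hippocampal neurons was not tested here.

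The series holds 12 poly(A) RNA-seq libraries of hippocampus from 3 groups (4 libraries each) of male C57BL/6 mice that were 6 to 8 weeks old when bought. Treatment mice were stressed and dosed: they went through chronic unpredictable mild stress (CUMS), a schedule of changing mild stressors, for 28 days, and from day 15 they had Poria cocos acid A (poricoic acid A in the series title, a triterpenoid of a fungus) at 20 mg/kg by gavage once a day for 14 days. Model mice had the same 28 days of stress with saline in place of the compound. Control mice were not stressed and had saline. Mice entered the experiment only if they preferred sucrose before it began, and no group of unstressed mice with the compound was analysed here. The labels do not say that each library is a separate animal, and the p-values can speak only for the spread among these samples. Because tissue and not sorted cells was sequenced, fewer granule cells and less RNA of a gene per granule cell cannot be told apart in these values. RNA of these genes from other cells cannot be separated either.

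Library totals ran from 17083260 to 27479083 estimated counts, and any pair of libraries correlated at 0.976 to 0.987 across genes. Each of the 10 genes was present in all 12 libraries, with Tdo2 the lowest at 131 estimated counts on average. Markers of the other hippocampal cells were present too: summed over 10 genes, CA1 pyramidal cell markers gave 796 to 1006 CPM (library-scaled counts, with TMM factors) in Treatment, 859 to 999.8 CPM in Model and 663 to 860.1 CPM in Control. Neocortical layer markers, genes of the cortex that overlies the hippocampus, gave 436 to 551 CPM over 12 genes in Treatment, 331 to 426 CPM in Model and 329 to 439 CPM in Control. No marker on any of the cell type lists was at 0 in all libraries.

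Per transcript length, the members spanned a wide range of levels. In mean FPKM over the 12 libraries (± SD), Calb1 was the highest at 46.3 ± 6.54, ranked 1882 of 32544 genes with a value. It was followed by C1ql3 at 39.8 ± 3.85 and C1ql2 at 35.4 ± 5.73 FPKM. The range of C1ql2 lay above that of Prox1 (18.0 ± 2.92 FPKM), and this was the only neighbouring pair in the order whose ranges did not overlap. Sema5a averaged 14.3 ± 2.62, Plk5 11.7 ± 1.48, Lct 7.27 ± 1.39, Trpc6 6.55 ± 1.38, Dsp 6.10 ± 1.03 and Tdo2 3.68 ± 1.28 FPKM. Between Calb1 and C1ql3, C1ql3 and C1ql2, Sema5a and Plk5, Lct and Trpc6, and Trpc6 and Dsp the difference of the means was smaller than the larger of the 2 SDs.

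Promoter sequence is shown for Prox1 and for the paralogous pair C1ql2 and C1ql3, because these 3 windows share a set of 6 letters. The windows are the 250 bases before the RefSeq start (GRCm38.p6; the coordinates of the expression table are GRCm39), on the strand that the table gives, and capitals mark CANNTG, the E-box recognised by basic helix-loop-helix factors. Prox1 has 2 starts in the table, and the window of its upstream start, on the minus strand at chr1:190170828-190171077, is shown. C1ql2 lies on the plus strand at chr1:120340332-120340581 and C1ql3 on the minus strand at chr2:13010865-13011114. Bases just after the start were found in transcripts of C1ql2 and of C1ql3, but not for either start of Prox1. The position and strand of the Prox1 window therefore rest on RefSeq alone.
Prox1: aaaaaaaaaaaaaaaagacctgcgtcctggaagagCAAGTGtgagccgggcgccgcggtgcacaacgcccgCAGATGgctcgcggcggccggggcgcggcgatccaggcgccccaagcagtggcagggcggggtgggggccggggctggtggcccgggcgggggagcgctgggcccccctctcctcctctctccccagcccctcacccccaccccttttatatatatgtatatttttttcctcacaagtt
C1ql2: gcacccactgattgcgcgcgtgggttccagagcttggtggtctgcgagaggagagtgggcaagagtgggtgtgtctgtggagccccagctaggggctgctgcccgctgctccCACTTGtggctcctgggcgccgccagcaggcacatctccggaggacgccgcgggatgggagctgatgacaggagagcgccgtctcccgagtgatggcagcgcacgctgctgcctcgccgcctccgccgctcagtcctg
C1ql3: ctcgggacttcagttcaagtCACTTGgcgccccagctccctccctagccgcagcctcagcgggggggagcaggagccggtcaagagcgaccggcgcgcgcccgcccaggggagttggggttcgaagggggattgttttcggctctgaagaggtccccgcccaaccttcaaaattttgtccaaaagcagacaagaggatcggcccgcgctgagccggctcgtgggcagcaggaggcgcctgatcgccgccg
The E-box letters CACTTG, read as CAAGTG on the other strand, stood 215 bases before the start of Prox1, 138 before that of C1ql2 and 230 before that of C1ql3. They were picked out after the windows had been read, and 11.6% of the 32851 RefSeq windows of this length hold them on either strand. Prox1 also holds CAGATG, found in 14.4% of windows. Over the 9 members that have a window, 5 hold CANNTG, against 66.2% of all windows, and 5 hold GGGCGG, the GC box, against 32.7%. TATAAA was found in 2 members (12.4% of all windows), and CAGCTG, TGACGTCA and TGANTCA in 0 members (13.0%, 1.55% and 6.75%). GC content was 64.8% for the Prox1 window, 68.8% for C1ql2 and 66.4% for C1ql3, against a median of 52.4% over all windows.

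**Figure D1:**
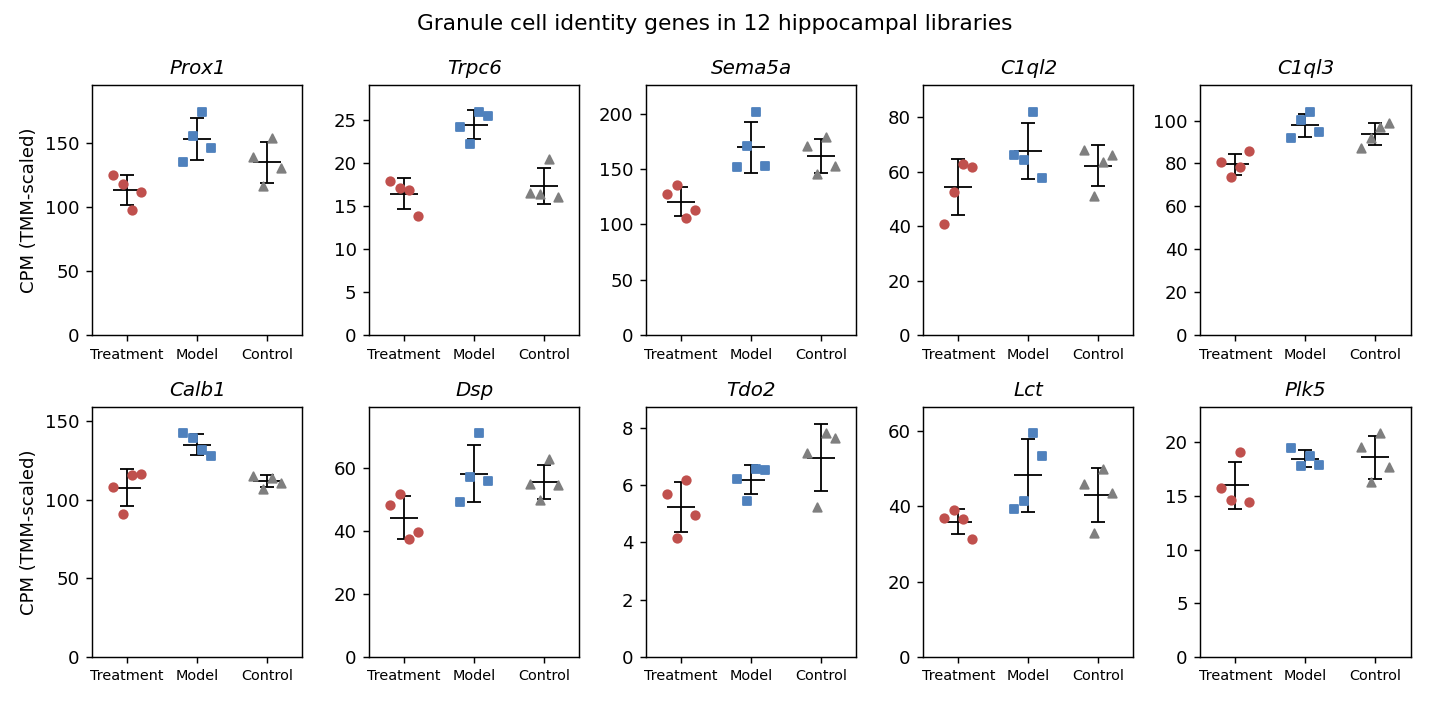
Level of each of the 10 genes in every library (TMM-scaled CPM, linear axis from 0), with the 4 libraries of Treatment, Model and Control left to right and bars for the mean ± SD. All 4 Treatment libraries lie below all 4 Model libraries for Prox1, Trpc6, Sema5a, C1ql3, Calb1 and Lct.

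The comparison of Treatment with Model asked what the compound changed in stressed mice. Of the 10 genes, 0 rose, 5 fell and 5 did not pass an adjusted p of 0.05 in edgeR (quasi-likelihood F test, Benjamini-Hochberg adjustment over all 18600 genes), while 1.88% of all genes passed (1.18% higher and 0.704% lower). All 10 fold changes were negative (49.6% of all genes), with a median of -0.36 on the log2 scale against 0.00 for all genes. In 6 of the 10 the Treatment and Model libraries did not overlap and Treatment was lower, which held for 4.36% of all genes. An unadjusted p under 0.05 was found for 9 members, against 18.5% of all genes. In the following, values per library are TMM-scaled CPM in the order of replicates 1 to 4, and fold changes are log2 ± SE with n = 4 libraries per group.

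Prox1, the identity factor (ENSMUSG00000010175, chr1:189850232-189902911), had 125, 118, 98.2 and 112 CPM in Treatment, against 136, 156, 175 and 146 CPM in Model and 139, 117, 154 and 130.4 CPM in Control. Every Treatment library was lower than every Model library, and the Control libraries overlapped both groups. Prox1 fell in Treatment against Model by 26.0% (-0.43 ± 0.10, adjusted p = 0.0331 in edgeR). An overlapping long noncoding gene, Prox1os, had 128 estimated counts on average against 2857 for Prox1, and since no strand setting is given its reads cannot be told from those of Prox1.

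Sema5a encodes a transmembrane semaphorin that in mice limits the number of excitatory synapses on granule cells (ENSMUSG00000022231, chr15:32244956-32563704). It had 128, 135, 106 and 113 CPM in Treatment, against 152, 171, 202 and 153 CPM in Model and 171, 145, 179 and 153 CPM in Control. All 4 Treatment libraries lay below all Model and all Control libraries, whereas Model and Control overlapped. Sema5a fell by 28.8% in Treatment against Model (-0.49 ± 0.10, adjusted p = 0.0259 in edgeR). The noncoding gene Snhg18, which overlaps its first bases, had 41.0 estimated counts on average against 3220 for Sema5a.

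C1ql3 and C1ql2 encode secreted C1q-like proteins that mossy fibres release and that in mice hold kainate-type glutamate receptors at their synapses on CA3 cells. C1ql3 (ENSMUSG00000049630, chr2:13008268-13016617), one of the 3 genes whose promoter is shown above, had 80.7, 73.8, 78.4 and 85.7 CPM in Treatment, 92.0, 100.2, 104 and 94.8 CPM in Model, and 87.2, 91.9, 96.9 and 98.9 CPM in Control. The 4 Treatment libraries were the lowest of the 12, and Model and Control overlapped. C1ql3 fell by 18.5% in Treatment against Model (-0.30 ± 0.06, adjusted p = 0.0305 in edgeR). Its spread within groups was the smallest of the 10, with a coefficient of variation of 5.79%. Gm37824 and Gm37811, transcripts to be verified experimentally that overlap C1ql3, had 96.8 and 68.9 estimated counts on average against 1944 for C1ql3.

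C1ql2 (ENSMUSG00000036907, chr1:120268312-120270903) had 40.7, 52.8, 62.9 and 61.7 CPM in Treatment, against 66.1, 64.5, 82.1 and 57.6 CPM in Model and 68.1, 51.3, 63.8 and 66.2 CPM in Control. Treatment replicate 1 was the lowest and Model replicate 3 the highest of the 12, and the groups overlapped. The difference between Treatment and Model was -0.31 ± 0.13 (95% interval -0.59 to -0.03, adjusted p = 0.223 in edgeR), so its size was close to that of C1ql3 but its spread within groups was larger (coefficient of variation 15.7%).

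Trpc6, a calcium-permeable cation channel opened by diacylglycerol (ENSMUSG00000031997, chr9:8544143-8680742), had 17.9, 17.1, 16.9 and 13.8 CPM in Treatment. It had 24.2, 22.2, 26.0 and 25.5 CPM in Model, and 16.5, 16.4, 20.5 and 16.1 CPM in Control. The Model libraries were the 4 highest of the 12, and Treatment and Control overlapped. In Treatment against Model Trpc6 fell by 33.0% (-0.58 ± 0.10, adjusted p = 0.0174 in edgeR), the largest fold change of the 10. The overlapping noncoding gene Gm32014 had 27.5 estimated counts on average against 414 for Trpc6.

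Calb1 encodes calbindin, the calcium-binding protein that buffers calcium in mature granule cells (ENSMUSG00000028222, chr4:15881264-15908064). It had 108, 90.9, 116 and 117 CPM in Treatment, against 142, 139, 131 and 128 CPM in Model and 115, 107, 114 and 111 CPM in Control. As with Trpc6, the 4 Model libraries were the highest and Treatment overlapped Control. Calb1 fell by 20.2% in Treatment against Model (-0.33 ± 0.07, adjusted p = 0.0341 in edgeR).

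A further 4 genes did not pass in edgeR in this comparison. Of these, Dsp and Lct passed in DESeq2 (adjusted p = 0.0192 and 0.0317) and in edgeR with no filter on low counts (adjusted p = 4.99e-05 and 1.75e-05), where C1ql2 passed as well (adjusted p = 0.00363). Both of these fits called far more of all genes than the main fit, which called 219 higher and 131 lower. DESeq2 called 554 higher and 545 lower, and the fit with no filter 619 and 471. Lct, the gene of lactase, an enzyme of the intestinal brush border (ENSMUSG00000026354, chr1:128212493-128256055), had 36.8, 38.9, 36.7 and 31.2 CPM in Treatment, 39.1, 41.3, 59.3 and 53.2 CPM in Model, and 45.9, 32.8, 49.8 and 43.5 CPM in Control. Treatment did not overlap Model, but the highest Treatment library and the lowest Model library were close (-0.43 ± 0.14, 95% interval -0.72 to -0.14, adjusted p = 0.109 in edgeR). Dsp, the gene of desmoplakin, which ties intermediate filaments to desmosomes (ENSMUSG00000054889, chr13:38335270-38382553), had 48.2, 51.8, 37.4 and 39.8 CPM in Treatment, against 49.1, 57.2, 71.0 and 55.8 CPM in Model and 54.8, 49.8, 62.8 and 54.7 CPM in Control. Treatment replicate 2 lay above Model replicate 1, so the groups overlapped (-0.40 ± 0.12, 95% interval -0.64 to -0.15, adjusted p = 0.0872 in edgeR). Gm10129, which overlaps Dsp, had 4.95 estimated counts on average against 1126 for Dsp.

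Tdo2 encodes tryptophan dioxygenase, which opens the kynurenine pathway of tryptophan breakdown (ENSMUSG00000028011, chr3:81864397-81883509). It had 5.69, 4.16, 6.16 and 4.96 CPM in Treatment, against 6.23, 5.45, 6.57 and 6.52 CPM in Model and 7.14, 5.25, 7.80 and 7.65 CPM in Control. The 3 groups overlapped, and Treatment against Model gave -0.24 ± 0.15 (95% interval -0.57 to 0.08, adjusted p = 0.42 in edgeR). Plk5, a member of the polo-like kinase family (ENSMUSG00000035486, chr10:80192293-80201323), had 15.8, 14.6, 19.1 and 14.5 CPM in Treatment, against 19.5, 17.8, 18.8 and 17.9 CPM in Model and 19.6, 16.3, 20.8 and 17.7 CPM in Control. Treatment replicate 3 lay within the range of the other groups and the remaining 3 Treatment libraries below both (-0.21 ± 0.10 against Model, adjusted p = 0.269 in edgeR).

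**Figure D2:**
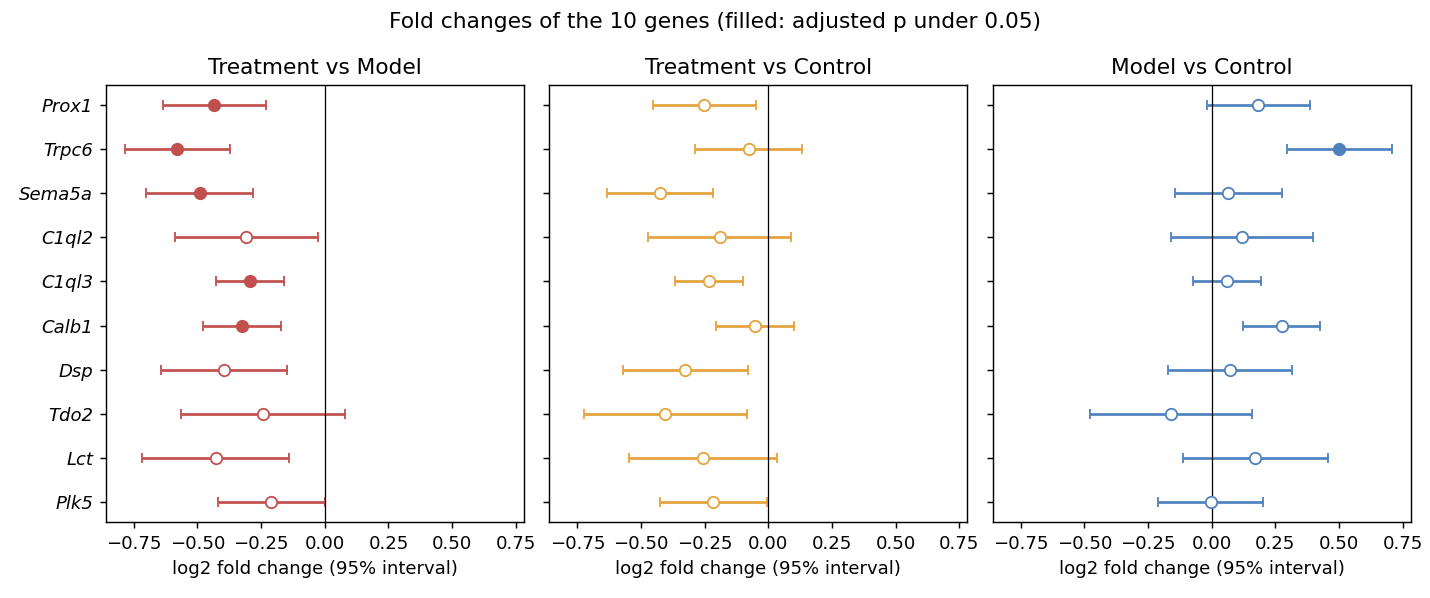
Log2 fold change of each gene with its 95% interval for Treatment against Model, Treatment against Control and Model against Control (filled markers: adjusted p under 0.05 in edgeR). All 10 points lie below 0 in the first 2 panels, with 5 filled in the first and 0 in the second, and Trpc6 alone is filled in the third.

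These calls rested on few libraries. Without Model replicate 2 or without Model replicate 3, 0 of the 10 members and 0 of all genes passed in Treatment against Model. Without Treatment replicate 2 there were 2 members and without Treatment replicate 4 there were 3. All 10 fold changes stayed negative in every one of these fits: Trpc6, for example, gave -0.62 without Model replicate 2 (adjusted p = 0.0659) and -0.55 without Model replicate 3 (adjusted p = 0.0705). With Treatment replicates 2 and 3 left out together, whose library names carry numbers apart from the other 10, Trpc6 alone passed.

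The neocortical markers moved the other way in the same libraries. All 12 were higher in Treatment than in Model, with a median of 0.48, and 2 passed the test: Cux2, a factor of upper cortical layers (54.3 CPM in Treatment, 30.9 CPM in Model; 0.81 ± 0.18, adjusted p = 0.0366), and Rspo1, a Wnt agonist (3.16 CPM in Treatment, 0.878 CPM in Model; 1.85 ± 0.35, adjusted p = 0.0217). With the neocortical score of each library as a covariate, 0 members and 2 genes of all passed in Treatment against Model. The median of the members was then -0.14 on the log2 scale against -0.36 without the covariate, with all 10 still negative. Calb1 gave -0.37 and Trpc6 -0.35, against -0.33 and -0.58 without the covariate. Prox1, Sema5a and C1ql3 gave -0.24, -0.23 and -0.21, against -0.43, -0.49 and -0.30 without it. C1ql2 gave -0.0040, Lct -0.022, Plk5 -0.041, Tdo2 -0.045 and Dsp -0.066. The score differs between the groups without overlap, so this fit separates the 2 only in part.

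**Figure D3:**
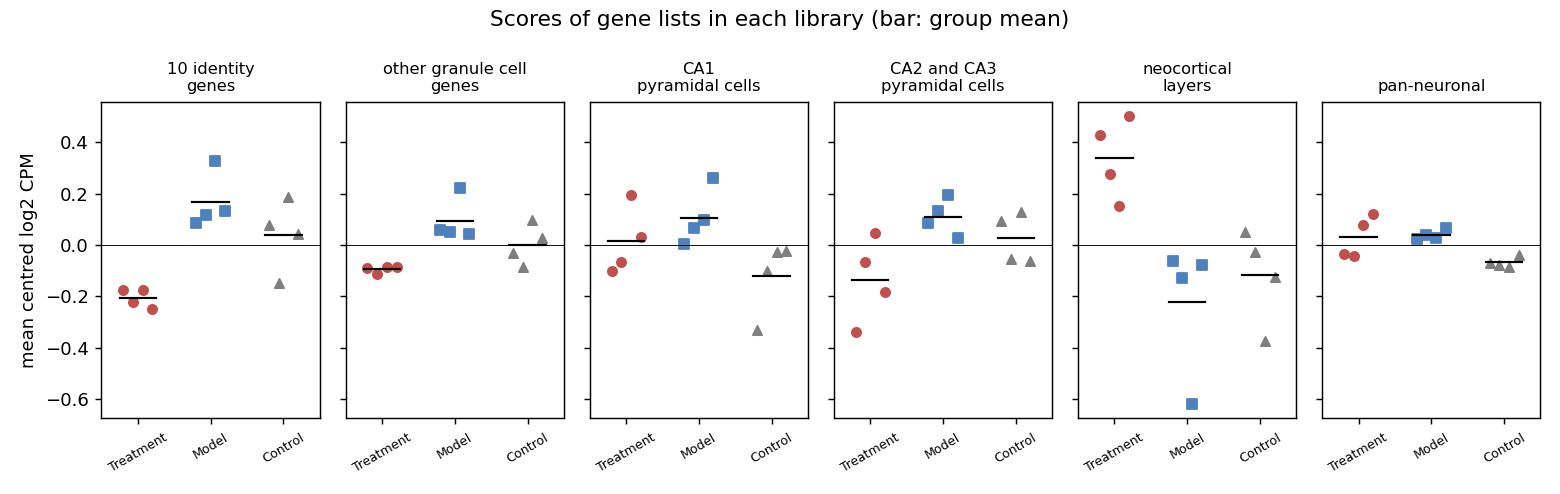
Mean centred log2 CPM of 6 gene lists in each library of Treatment, Model and Control (points: libraries; bars: group means). For the 10 genes all Treatment libraries lie between -0.25 and -0.18 and all Model libraries between 0.09 and 0.33, and for the neocortical list Treatment lies between 0.15 and 0.50 and Model between -0.62 and -0.06.

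Other neuron types gave the following beside the 10 genes. Of 20 other granule cell genes, 0 rose, 1 fell and 19 did not pass in Treatment against Model, 16 were negative, 8 did not overlap and were lower, and the median was -0.24. The gene that fell was Il16, a cytokine precursor with 28.3 CPM in Treatment and 40.5 CPM in Model (-0.52 ± 0.10, adjusted p = 0.0227 in edgeR). Of 12 CA2 and CA3 markers 2 fell (Nrip3 and Rnf182), all 12 were negative, 4 did not overlap and were lower, and the median was -0.20. Of 10 CA1 markers 1 fell (Gpr161, -0.55 ± 0.12, adjusted p = 0.0331 in edgeR), 2 did not overlap and were lower, and the median was -0.12. None of the 12 pan-neuronal genes passed, with 6 positive and 6 negative, 1 lower without overlap and a median of 0.00. Over all genes, 4.36% did not overlap and were lower. When libraries were scaled to the summed pan-neuronal counts, 3 members fell (Trpc6, C1ql3 and Calb1), and Prox1 and Sema5a gave -0.39 and -0.45 with adjusted p = 0.0609 and 0.0535. Their part in the results of the 10 genes was not tested further.

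The lists of other cell types gave these counts in Treatment against Model. None of 11 genes of progenitors and immature granule cells passed (median -0.07), nor any of 5 mossy cell genes (median -0.01), 10 interneuron genes (0.04), 6 oligodendrocyte genes (0.07), 6 microglial genes (0.12) or 10 choroid plexus genes (0.22). Of 8 astrocyte genes 1 rose (Aldh1l1), and of 8 endothelial genes 2 rose (Pecam1 and Slco1a4) with all 8 positive and a median of 0.30. The summed endothelial level was 188 to 225 CPM in Treatment, 162 to 179 CPM in Model and 152 to 173 CPM in Control.

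The families to which the members belong had few genes past the test in Treatment against Model. Of 13 C1q-like relatives and partners with enough counts, 0 fell and 1 rose: Adgrb1, an adhesion receptor related to the C1q-like receptor Adgrb3, with 422 CPM in Treatment and 341 CPM in Model (0.31 ± 0.06, adjusted p = 0.0199 in edgeR). Treatment and Model did not overlap for Adgrb1. None of 5 other Trpc channels passed, although 4 were negative (median -0.26). None of 8 semaphorin relatives and plexins (median 0.13), of 8 calcium-binding proteins (-0.10), of 4 other polo-like kinases (0.01) or of the 6 tested of 11 genes of tryptophan breakdown and serotonin synthesis (0.04) passed. Of 9 tested desmosome genes 1 fell, the plakophilin Pkp2 (-0.42 ± 0.10, adjusted p = 0.0493 in edgeR). Of 10 hippocampal transcription factors 1 fell, the homeobox gene Emx2 (-0.35 ± 0.08, adjusted p = 0.0333 in edgeR). In 5 of these 10 factors Treatment and Model did not overlap and Treatment was lower, against 4.36% of all genes. Among these 5, Neurod1, Neurod2 and Bcl11b are also on the list of other granule cell genes and were counted there. Their median was -0.16, with 6 negative and 4 positive.

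The comparison of Model with Control asked what the stress changed. Of the 10 members 1 rose, against 0.79% of all genes called (0.339% higher and 0.452% lower), 0 fell and 9 did not pass, 8 were positive (47.3% of all genes), and the median was 0.095 against -0.012 for all genes. An unadjusted p under 0.05 was found for 2 members, against 15.6% of all genes. Trpc6 averaged 24.5 ± 1.68 CPM in Model and 17.3 ± 2.11 CPM in Control (SD, n = 4 each), and rose by 41.6% (0.50 ± 0.10, adjusted p = 0.0295 in edgeR). The call of Trpc6 was lost without Control replicate 1, 2 or 4 and without Model replicate 2, 3 or 4, with an adjusted p of up to 0.11 and fold changes of 0.47 to 0.60 over the 12 fits. Calb1 averaged 135 ± 6.83 CPM in Model and 112 ± 3.68 CPM in Control and was the other member whose groups did not overlap (0.27 ± 0.07, adjusted p = 0.082 in edgeR); 5.95% of all genes were higher in Model without overlap. Calb1 passed in DESeq2 (adjusted p = 0.00937), which called 428 genes higher and 264 lower, against 63 and 84 in the main fit.

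The other 8 members lay between -0.16 and 0.18 in Model against Control. Prox1 gave 0.18 ± 0.09 (adjusted p = 0.37), Lct 0.17 ± 0.13 (0.591) and C1ql2 0.12 ± 0.13 (0.724). Dsp, Sema5a and C1ql3 were at 0.071, 0.066 and 0.061, and Tdo2 at -0.16. Plk5 was at -0.0042 ± 0.10 with an interval of -0.21 to 0.20. Among the other granule cell genes 1 of 20 rose, Neurod2, a neuronal factor of the helix-loop-helix family that binds E-boxes (179 CPM in Model, 142 CPM in Control; 0.34 ± 0.07, adjusted p = 0.0499 in edgeR), and the median was 0.08. Emx2 rose too (20.6 CPM in Model, 16.1 CPM in Control; 0.36 ± 0.08, adjusted p = 0.0454 in edgeR). The 12 pan-neuronal genes were all positive in this comparison (median 0.10, 0 passed), and with libraries scaled to their sum the members called numbered 0 and Sema5a, C1ql2, C1ql3 and Dsp turned slightly negative, between -0.073 and -0.016, the median of all genes having shifted to -0.15. The 10 choroid plexus genes were all negative (median -1.30) and 1 fell, Sostdc1; their summed level was 607 to 879 CPM in Model and 727 to 2385 CPM in Control.

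Set against unstressed mice, stressed and treated mice had 0 members past the threshold in edgeR, against 0.102% of all genes called (0.0645% higher and 0.0376% lower). All 10 fold changes of Treatment against Control were negative (52.1% of all genes), with a median of -0.24 against -0.01, and 6 members had an unadjusted p under 0.05 (13.9% of all genes). Sema5a and C1ql3 were the 2 members whose Treatment libraries all lay below the Control libraries (3.24% of all genes). Sema5a averaged 120.5 ± 13.3 CPM in Treatment and 162 ± 15.5 CPM in Control (-0.43 ± 0.10, adjusted p = 0.101 in edgeR). C1ql3 averaged 79.7 ± 4.97 CPM in Treatment and 93.7 ± 5.21 CPM in Control (-0.23 ± 0.06, adjusted p = 0.126 in edgeR). Both passed in DESeq2, and Sema5a and Dsp passed in edgeR with no filter. Over all genes, DESeq2 called 322 higher and 118 lower and the fit with no filter 424 and 324, against 12 and 7 in the main fit.

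Markers of other cells had 0 genes past the threshold in edgeR in this comparison, and their levels were as follows. Of 12 neocortical markers 11 were positive in Treatment against Control (median 0.42), and their summed level was 436 to 551 CPM in Treatment and 329 to 439 CPM in Control. All 8 endothelial markers were positive (median 0.39), with a summed level of 188 to 225 CPM in Treatment and 152 to 173 CPM in Control. All 10 choroid plexus markers were negative (median -1.04), with 475 to 1477 CPM in Treatment and 727 to 2385 CPM in Control. With the neocortical score as a covariate, 7 of the 10 members were negative and their median was -0.081, while Trpc6, C1ql2 and Lct turned positive at 0.11, 0.048 and 0.068. The part of the endothelial and choroid plexus markers in the result was not tested.

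Between Treatment and Control Trpc6 and Calb1 differed least: Trpc6 gave -0.077 ± 0.10 (interval -0.29 to 0.13) and Calb1 -0.051 ± 0.07 (interval -0.20 to 0.10). Trpc6 averaged 16.4 ± 1.80 CPM in Treatment and Calb1 108 ± 11.9 CPM. The remaining members were Tdo2 at -0.40 ± 0.15, Dsp at -0.33 ± 0.12, Lct at -0.26 ± 0.14, Prox1 at -0.25 ± 0.10, Plk5 at -0.22 ± 0.10 and C1ql2 at -0.19 ± 0.13, with adjusted p of 0.226 to 0.567. The 3 comparisons share libraries in pairs, so their fold changes are not independent of each other. None of the other listed genes passed in Treatment against Control.

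**Figure D4:**
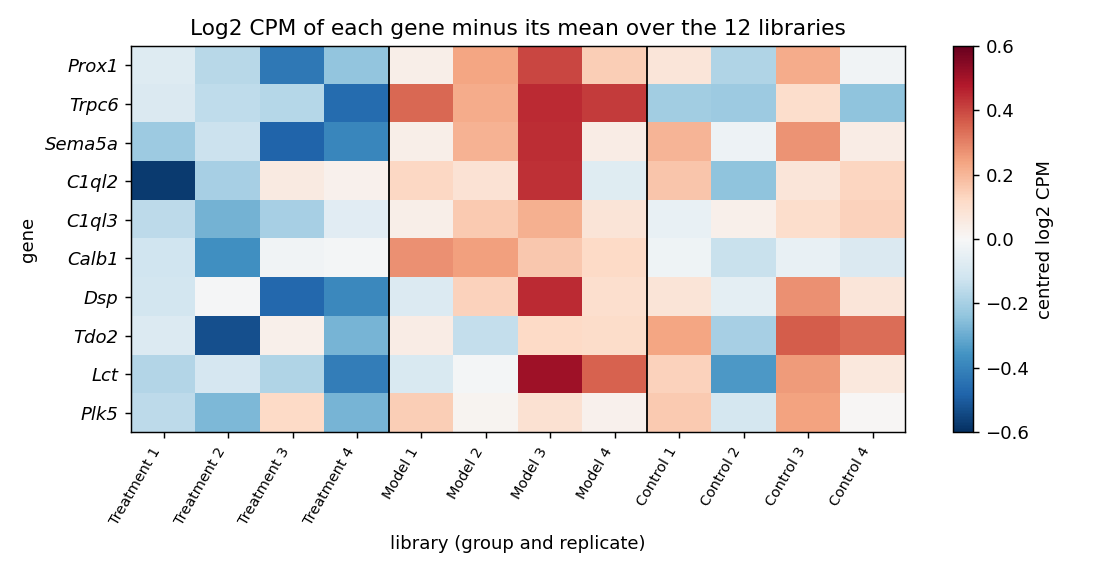
Log2 CPM of each gene minus its mean over the 12 libraries, with Treatment, Model and Control libraries left to right (red higher, blue lower). Model replicate 3 is the highest library for 7 of the 10 genes, and a Treatment library is the lowest for all 10.

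The same libraries were often at the extremes for several of the genes. Model replicate 3 was the highest of the 12 libraries for 7 of the 10 genes (Prox1, Trpc6, Sema5a, C1ql2, C1ql3, Dsp and Lct), and it was also the lowest in the neocortical score, at -0.62. Within Control, replicate 3 was the highest for 7 genes and replicate 2 the lowest for 8. Calb1 was highest in Model replicate 1, and Tdo2 and Plk5 in Control replicate 3. A Treatment library was the lowest of the 12 for each gene: replicate 3 for Prox1, Sema5a and Dsp, replicate 4 for Trpc6, Lct and Plk5, replicate 2 for C1ql3, Calb1 and Tdo2, and replicate 1 for C1ql2. Within-group coefficients of variation ran from 5.79% to 16.0%.

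By the root-mean-square distance between standardised log2 CPM profiles over the 12 libraries, where 0 is an identical profile, Sema5a and Dsp were closest of the 45 pairs (0.279). Prox1 and Sema5a followed at 0.349 and Prox1 and Dsp at 0.377. Calb1 and Dsp were farthest apart (1.19), followed by Trpc6 and Tdo2 (1.14). Against the mean profile of the 10 genes, Prox1 was nearest (0.425) and Calb1 farthest (0.721). Clone names and genes without a symbol were skipped, which left 11441 other genes with at least 5 CPM on average. The nearest of them to that mean profile were Kctd4 (0.306), Tbc1d32 (0.352), Pcdh20 (0.358), Nrip3 (0.369), Cpne4 (0.374), Eif4a1 (0.375), Scn3b (0.392) and Odr4 (0.402). Of these 11441 genes, 13 were nearer to the mean profile than Prox1 and 680 were nearer than Calb1. Each member is part of the mean profile, which draws it nearer, and the other genes are not. Kctd4 averaged 68.4 ± 4.04 CPM in Treatment, against 97.6 ± 5.16 CPM in Model and 86.9 ± 11.4 CPM in Control. The distances describe these 12 libraries, and no test was made of them.

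**Figure D5:**
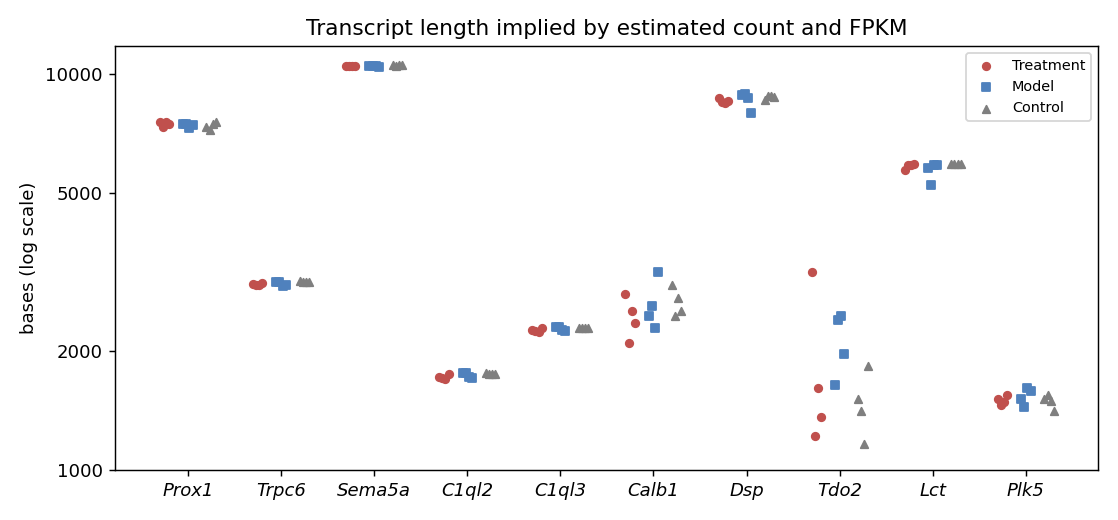
Transcript length in bases (log axis) that the deposited estimated count and FPKM of each gene imply, per library of Treatment, Model and Control. Tdo2 and Calb1 are spread over 1160 to 3151 and 2090 to 3167 bases, while Sema5a is spread over 10440 to 10543 bases.

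The deposited FPKM and estimated counts gave different calls or directions for several members, and for Tdo2 and Calb1 the 2 values were not in a fixed ratio. The length that ties the count to the FPKM ranged from 1160 to 3151 bases for Tdo2, a ratio of 2.72 between libraries, and from 2090 to 3167 bases for Calb1, a ratio of 1.52. For the other 8 the ratio was 1.14 or less. The highest value of Tdo2 was that of Treatment replicate 1 and the highest of Calb1 that of Model replicate 4. In FPKM (log2 with a pseudocount of 1, limma) Treatment against Model gave 0.041 for Tdo2, so its direction turned, and -0.22 for Calb1 (adjusted p = 0.335). Only Trpc6 passed in FPKM in Treatment against Model (-0.49, adjusted p = 0.0469), so Calb1, C1ql3, Sema5a and Prox1 lost the call: C1ql3 stood at an adjusted p of 0.0502, Sema5a at 0.0648 and Prox1 at 0.0735. In Model against Control Trpc6 did not pass in FPKM (0.43, adjusted p = 0.116).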

How the data were processed

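Poly(A) RNA of mouse hippocampus was measured in 12 libraries, grouped by the labels into Treatment, Model and Control (4 each, batch 1). The authors deposited, per gene and library, an unscaled estimated count (28.8% of nonzero values were not whole within a tolerance of 1e-06) and an FPKM value scaled by length and library total. The submitters' processing notes name Salmon 1.10.1, STAR 2.7.10a, FastQC 0.12.1, Trim Galore 0.6.7 and cutadapt 3.4, with the build GRCm39; their roles and a strand setting are not given in the sources used here. 21883 genes have no symbol.

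Rounded estimated counts were analysed with edgeR 4.0.16 (R 4.3.3). Its filterByExpr kept 18600 genes, TMM factors scaled the libraries, and the quasi-likelihood fit took all 12 libraries and 3 group means at once. A gene was called at an adjusted p (Benjamini-Hochberg, over the 18600 genes) under 0.05. CPM is scaled by TMM, and a prior count of 2 was added before taking the log2 CPM behind scores and distances. The precision follows from 17083260 to 27479083 counts a library and a biological coefficient of variation of 10.7%. The fit was tested on simulated data.

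The 10 members, 21 other gene lists and tests were chosen with earlier results of these data known. Some genes stand on several of the other lists. Named genes were the members, up to 4 called genes of smallest p per list (otherwise its gene of highest mean FPKM) and the 8 genes nearest to the members' mean profile; of lists without a call only the count and median are printed. Promoter windows came from RefSeq (GRCm38.p6), where 9 of 10 members matched. Alternatives were RLE scaling, DESeq2 1.42.0, limma-voom and FPKM in limma 3.58.1 (pseudocounts 1 and 0.1, at least 0.5 FPKM in 4 libraries), no filter, at least 1 CPM in 8 libraries, only the 8 libraries compared, a replicate block, pan-neuronal scaling, the neocortical score as a covariate, and leaving out libraries. Other tools were Python 3.11.15, pandas 2.3.3 and matplotlib 3.10.9. Reads were not realigned.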

Additional observations from a re-analysis of the deposited data

Results flagged for a closer look

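Trpc6 in Control replicate 3 stood apart from the other Control libraries: at 20.5 CPM against 16.1 to 16.5 CPM, the gap to its nearest neighbour was 0.901 of the group's whole range on the log2 scale, above the 95% critical value of Dixon's test for 4 samples. Of 30 groups (10 genes in 3 conditions) no other exceeded it, and chance gives about 1 in 20. Without this library, Trpc6 in Treatment against Control was 0.017 on the log2 scale, against -0.077 with it.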

How the results depend on the processing

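For the 10 genes, 720 values under alternatives were computed: 628 kept their direction and side of the threshold, 49 lost the call, 15 gained one and 28 changed direction. Direction changed only in members that had not passed in that comparison. In Treatment against Model the members called (5) numbered 7 in DESeq2, 8 with no filter, 3 with only the 8 libraries compared, 3 with pan-neuronal scaling, 0 with the neocortical covariate, 1 in FPKM with either pseudocount, 1 without Treatment replicates 2 and 3 together, and 0 to 5 with 1 library left out. In Model against Control they (1) numbered 2 in DESeq2, with no filter, with only the 8 libraries compared and without Treatment replicates 2 and 3 together, 0 with pan-neuronal scaling and in FPKM, and 0 to 2 with 1 library left out. In Treatment against Control they (0) numbered 2 in DESeq2 and with no filter, 1 with pan-neuronal scaling and 0 to 0 with 1 library left out.

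Over all genes, Model against Control (147) gave 692 in DESeq2, 88 in limma-voom, 783 with no filter, 452 with only the 8 libraries compared, 228 with the replicate block, 1045 with pan-neuronal scaling, 5 and 5 in FPKM, 284 without Treatment replicates 2 and 3 together and 8 to 273 with 1 library left out. Treatment against Model (350) gave 1099 in DESeq2, 1090 with no filter, 137 with only the 8 libraries compared, 2 with the neocortical covariate, 111 and 114 in FPKM with pseudocounts of 1 and 0.1, 132 without Treatment replicates 2 and 3 together and 0 to 459 with 1 library left out. Treatment against Control (19) gave 12 with RLE scaling, 440 in DESeq2, 9 in limma-voom, 748 with no filter, 2 with only the 8 libraries compared, 118 with the replicate block, 109 with pan-neuronal scaling, 1 with the neocortical covariate, 9 in FPKM with a pseudocount of 1, 130 without Treatment replicates 2 and 3 together and 0 to 73 with 1 library left out. The cause of these differences was not tested.

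Changes of direction were as follows, as log2 values. Plk5 in Model against Control was 0.0035 with RLE scaling, 0.0040 in DESeq2, 0.013 in limma-voom, 0.010 with no filter, and -0.062 to 0.062 with 1 library left out. Pan-neuronal scaling gave -0.069 for Sema5a, -0.016 for C1ql2, -0.073 for C1ql3 and -0.064 for Dsp in Model against Control. The neocortical covariate gave 0.11 for Trpc6, 0.048 for C1ql2 and 0.068 for Lct in Treatment against Control. In FPKM, pseudocounts of 1 and 0.1 gave 0.041 and 0.045 for Tdo2 in Treatment against Model, and 0.050 and 0.051 for Calb1 in Treatment against Control. With 1 library left out, Sema5a ranged from -0.022 (without Model replicate 3) to 0.13 and Dsp from -0.031 (without Model replicate 3) to 0.15 in Model against Control. In Treatment against Control, Trpc6 ranged from -0.12 to 0.017 (positive without Control replicate 3 or Treatment replicate 4) and Calb1 from -0.090 to 0.033 (positive without Treatment replicate 2), and Calb1 was 0.0074 without Treatment replicates 2 and 3 together.

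The replicate numbers did not pair the libraries: same-numbered libraries correlated at -0.04 to 0.111 in their deviations over 12 pairs, 1 of them over 0.1, and 4 of 12 libraries correlated best with their own number. With the number as a block, the members called were unchanged at 1 in Model against Control, 5 in Treatment against Model and 0 in Treatment against Control. Tdo2, at 131 estimated counts on average, was the member most limited by depth.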
